A study of Mus musculus with 480 samples.

Results

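The cells described here are the 97 lung cells annotated as club cells in the reporter line Scgb1a1-TD. They were chosen by their labels alone, source name and cell sub-type, and make up 97 of the 160 cells of that line (60.6%, Clopper-Pearson 95% interval 52.6% to 68.2%) and 97 of the 480 cells of the series. Single epithelial cells were sorted from digested mouse lungs, the cDNA of each cell was copied at full length and amplified, and its reads were assigned to genes. The line's genotype is written Scgba1a1-CreER;R26-tdtomato, so the red reporter marks cells in which the Scgb1a1 promoter drove an inducible Cre, and their descendants. Of the other 2 lines of the series, BASCs-Tracer enters only as reference values, and no value of Sftpc-TD is given. No label gives an animal, age, sex, pool, tamoxifen dose or chase time. The line therefore counts as 1 sample, cells are not replicates, no test between groups was possible, and no value has a replicate check.

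Club cells are the non-ciliated secretory cells of the bronchioles. They release secretoglobins and defence proteins into the airway lining fluid, hold much of the lung's cytochrome P450 activity, and can divide and give rise to ciliated cells. Mouse club cells are known to differ along the airway, with Scgb3a2 and Scgb3a1 used as markers of positions and states. The markers Scgb1a1, Scgb3a2, Cyp2f2, Aldh1a1 and Hp had reads in 97 of 97 club cells, but also in 24 of 24 ciliated cells of the line, so the label was checked by level and not by detection.

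Of the 97 cells, 22 lay on plate 2, 60 on plate 3 and 15 on plate 4. They held 97171266 gene-assigned reads, from 4519 to 2419525 per cell with a median of 1082694. Plate medians were 515172, 1111572 and 1224598 reads. Reads come from PCR without molecular identifiers, so read numbers are not numbers of molecules. All intervals given here are on numbers of cells, treat cells as independent draws and cover counting error only. Levels are CPM, the reads of a gene scaled to a fixed total of gene-assigned reads, given for the summed reads of all cells and for single cells. Where cells are compared, each was thinned at random to 100000 reads, which left out 3 cells and kept 21, 58 and 15 on the 3 plates. The median share of mitochondrial reads was 3.20%, from 1.17% to 12.3%.

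The summed level of 22 club markers was higher than that of 16 alveolar type 2 (AT2) markers and that of 16 ciliated cell markers in 97 of 97 cells, and again in 97 of 97 without Scgb1a1 and Sftpc. The club sum ran from 208593 to 563194 CPM with a median of 379962 CPM. The AT2 sum ran from 791 to 195562 CPM with a median of 4953 CPM, and the ciliated sum from 0 to 5164 CPM with a median of 12.6 CPM. In the line's ciliated cells the club sum had a median of 40702 CPM, above the 13442 CPM of their ciliated sum. A highest club sum therefore does not tell club from ciliated cells, and the sub-types may rest on the same counts. A set of 11 cells was defined by Sftpc or by the ciliated sum, and is called the 11 cells apart. Sftpc, which encodes surfactant protein C of AT2 cells, reached 10000 CPM or more in 9 cells (4 on plate 2, 5 on plate 3, 0 on plate 4). The ciliated sum reached 500 CPM or more in 4 cells, of which 2 were also among those 9. The closest to equality was plate 3 well G3, with 208593 CPM of club markers against 195562 CPM of AT2 markers, and 3 of the 11 were the shallow cells left out by thinning. Outside the 11 cells the AT2 sum still reached 66316 CPM, above that of several of them. These limits were set after the values were seen, and no doublet caller was run.

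**Figure D1:**
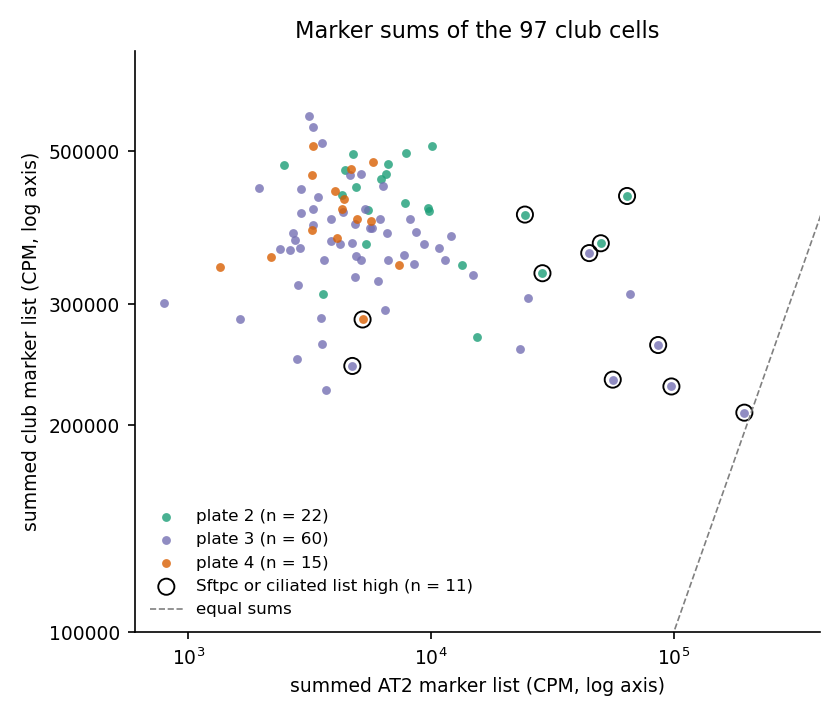
Summed CPM of the 22 club markers (y axis, log) against the 16 AT2 markers (x axis, log) in each of the 97 club cells, coloured by plate, with the 11 cells of high Sftpc or ciliated marker sum circled and a dashed line at equal sums. All cells lie above the line, and plate 3 well G3 lies nearest to it.

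Markers of other lung cells were low. Of 6 basal cell markers, Krt5, Trp63, Krt14, Ngfr and Dapl1 had 0 reads in 97 cells. By the rule of 3 (3 divided by the number of cells), this allows a share of cells with a read of up to 3.09%. The leukocyte gene Ptprc had a read in 1 cell and Laptm5 in 0, although Lcp1, which encodes an actin-bundling protein, stood at 122.9 CPM with a read in 90 cells. The macrophage genes Marco, Ear2, Siglecf and Mrc1, the mesenchymal genes Pdgfra and Pdgfrb, the ionocyte genes Foxi1 and Ascl3, the tuft cell genes Trpm5, Pou2f3, Il25 and Gnat3 and the neuroendocrine genes Chgb and Pcsk1 were all at 0 reads. Other members of these lists had reads, although each list sum had a median of 0 CPM. The highest sums in a cell were 790 CPM (mesenchymal, plate 3 well G7), 342 CPM (ionocyte), 313 CPM (tuft), 196 CPM (macrophage) and 159 CPM (neuroendocrine). The sum of 8 endothelial markers had a median of 48.3 CPM. Kdr, a VEGF receptor, was the 1 member at 10 CPM or more (119.98 CPM). The sum reached 2330 CPM in 1 cell, plate 3 well H8, against 666 CPM in the next.

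Scgb1a1, the secretoglobin that names the line, took 258576 CPM (gene ENSMUSG00000024653, GRCm38 chromosome 19, 9083636 to 9087958, minus strand). Single cells ran from 113019 to 465043 CPM with a median of 257566 CPM, and plate medians were 303575, 240671 and 272469 CPM. No cell was near 0, and the 3 plates overlapped. Without the 11 cells apart the summed level was 263565 CPM. CPM was also divided by exon length, which puts genes on 1 scale. Scgb1a1 made up 56.9% of the sum on that scale, a share of length-scaled reads and not of molecules. Next on that scale came Cbr2, a carbonyl reductase, with 3.31%, Scgb3a2 with 2.69%, the cytochrome P450 Cyp2f2 with 1.81% and haptoglobin, Hp, with 0.979%. The 10 genes with most reads held 40.6% of reads, and from 22.1% to 57.5% in single cells.

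Scgb3a2, a second secretoglobin, was present throughout but far less even. It ran from 19.3 to 117269 CPM with a median of 18147 CPM, and it stood at 1000 CPM or more in 93 of 97 cells. Plate medians were 18447, 17231 and 22069.6 CPM, so the plates overlapped. The lowest value, 19.3 CPM, belonged to plate 4 well F2, which is one of the 11 cells apart. Scgb1c1, a minor family member, had a median of 160 CPM and a read in 90 cells.

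Scgb3a1 was the reverse of Scgb1a1: most cells were at or near 0 and a few held very much. Its summed level was 3362 CPM (GRCm38 chromosome 11, 49663610 to 49665118, plus strand), but the median cell had 6.54 CPM, 28 cells had 0 reads, and the highest had 52258 CPM. It reached 1000 CPM or more in 14 cells (14.4%, 8.12% to 23.03%), of which 2 lay on plate 2, 8 on plate 3 and 4 on plate 4. After thinning, a read was seen in 47.9% of club cells against 37.5% of the line's 24 ciliated cells, at median depths of 1082694 and 990495 reads before thinning. For Bpifb1 the shares were 23.4% and 25%, so low read numbers of these genes lay near the level of cells that should lack them. The 250 bases before the start that RefSeq gives for Scgb3a1 (GRCm38.p6, chr11:49663345-49663594, plus strand) are shown because this gene varied most. Capitals mark a match to the NKX2-1 letters CTCAAG, which ends 167 bases before the start, and one to the FOXA letters TGTTTNC, which ends 49 bases before it, both on the minus strand.
Scgb3a1: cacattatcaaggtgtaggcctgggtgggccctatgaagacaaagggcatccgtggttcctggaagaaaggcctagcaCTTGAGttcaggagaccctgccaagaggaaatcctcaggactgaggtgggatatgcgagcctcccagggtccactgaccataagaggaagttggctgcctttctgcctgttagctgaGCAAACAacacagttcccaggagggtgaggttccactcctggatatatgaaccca
In all 32851 windows of the table, which run from 250 bases before to 50 after a start, searched on both strands, the NKX2-1 letters were in 15.9% and the FOXA letters in 20.5%. These letters are thus common, and a match is not a bound site.

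Cells with much of several other secreted defence products mostly also had much Scgb3a1. In the other direction, of the 14 cells with 1000 CPM or more of Scgb3a1, 10 had as much Muc5b, 9 Bpifb1, 8 Reg3g, 8 Lypd2 and 5 Bpifa1. Reg3g, an antibacterial lectin, had a median of 0 CPM and a highest value of 51838 CPM, and all 8 cells with 1000 CPM or more of it also had 1000 CPM or more of Scgb3a1. For Lypd2 this held in 8 of 8 cells, for Bpifa1 (the airway protein SPLUNC1) in 5 of 5, for Bpifb1, of the same family, in 9 of 10, and for the gel-forming mucin Muc5b in 10 of 12. On plate 2, 0 cells reached that level of Reg3g, Bpifb1 or Bpifa1, although 2 reached it for Scgb3a1 and 3 for Muc5b. The 1 cell apart among the Reg3g-high cells was plate 3 well A11, which held 4519 reads in all. Without the 11 cells apart the summed levels were 3623 CPM for Scgb3a1, 2372 CPM for Reg3g, 2094 CPM for Bpifb1 and 1316 CPM for Bpifa1, against 3362, 2201, 1943 and 1221 CPM with them.

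**Figure D2:**
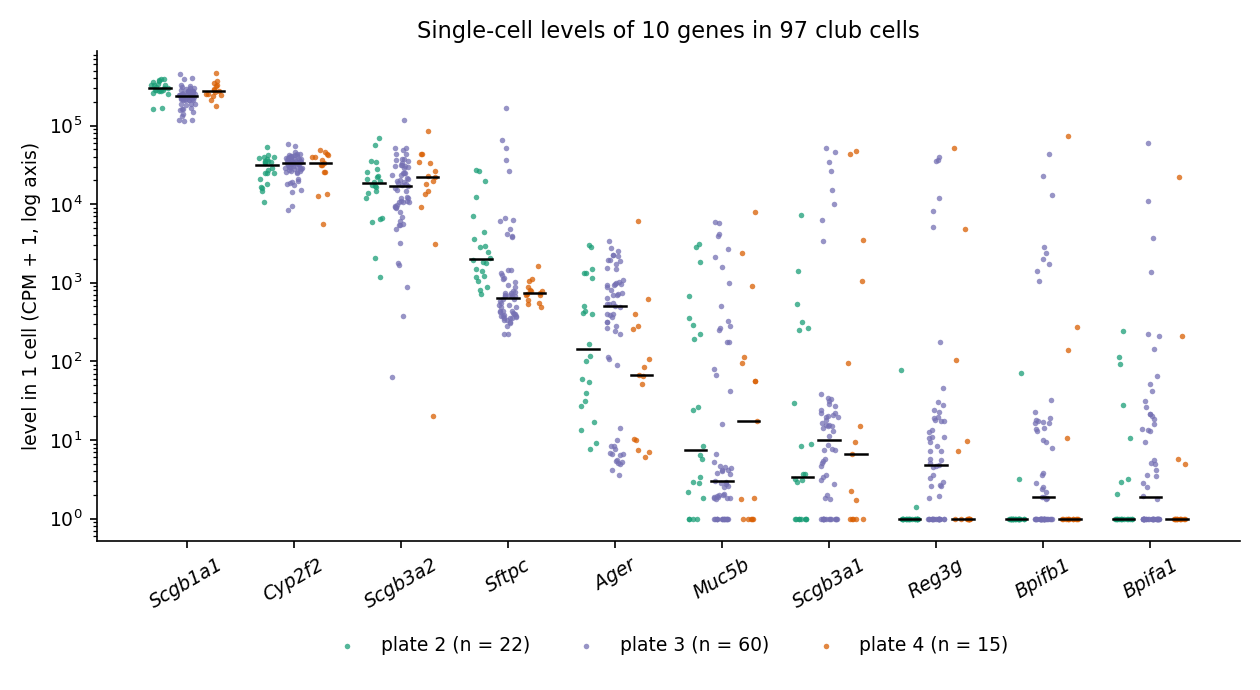
Level of 10 genes in each of the 97 club cells (y axis, CPM + 1, log), split by plate, with bars at plate medians. Scgb1a1 and Cyp2f2 form narrow bands in every plate, whereas Scgb3a1, Reg3g, Bpifb1 and Bpifa1 lie near 0 in most cells and above 1000 CPM in 14, 8, 10 and 5 cells.

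The 8 goblet cell markers, which include Bpifb1, summed to 1000 CPM or more in 10 cells, to 77326 CPM in the highest and to 0 in 33. Of the 8 markers, 6 were 4-fold or more above ciliated cells, beside 8.12% of all 12002 genes measured. Bpifb1 gave most of their reads, and the others were seen in 17 cells or fewer. Muc5ac, the mucin of goblet cells, had reads in 16 cells and a highest value of 385 CPM. Spdef, a transcription factor of goblet cells, had reads in 16 cells and reached 183 CPM, and Foxa3 had reads in 5. Clca1 had reads in 10 cells and reached 2122 CPM. Of the 15 genes of secreted airway defence, 13 stood at 10 CPM or more over all cells. Hp ran from 1753 to 30554 CPM with a median of 11479 CPM, and Wfdc2 had a median of 1609 CPM. Pigr, which carries immunoglobulin A across the epithelium, had a median of 414 CPM, and complement C3 one of 378 CPM. Chil4 had 0 reads, and Slpi had a summed level of 1.83 CPM. Hp, Wfdc2 and Lyz2 had a read in all 97 cells, unlike Reg3g (47), Bpifa1 (43), Ltf (42) and Bpifb1 (39). Lyz2, which is also on the AT2 list, was uneven, with a median of 216 CPM and a highest value of 47616 CPM without the 11 cells apart.

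Genes that oxidise foreign compounds were the next large share. Cyp2f2, the P450 that activates naphthalene in mouse club cells, ran from 5549 to 58296 CPM with a median of 32895 CPM and plate medians of 31328, 33069 and 32895 CPM (chromosome 7, 27119909 to 27133660, plus strand). Its coefficient of variation over cells was 33.2%, close to the 27.1% of Scgb1a1. Cyp4b1 followed with a median of 2907 CPM, the carboxylesterase Ces1d with 2948 CPM, cytochrome b5 (Cyb5a) with 1896 CPM and the P450 reductase Por, which passes electrons to P450s, with 743 CPM. Aox3 (median 754 CPM) and Fmo2 (median 448 CPM) had reads in 97 and 96 cells. Of the 22 genes of this list, 17 reached 10 CPM in the summed cells. Cyp2e1, a main P450 of the liver, had 0 reads, and Cyp2a4 had reads in 1 cell. Reads of near-identical P450, Ces1 and Gstm genes may be shared between copies, so levels within these families are uncertain.

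Before thinning, a read in at least 50% of cells was seen for 13 of 19 conjugation genes, 11 of 20 aldehyde, carbonyl and retinoid genes and 19 of 20 antioxidant genes. Of the 20108 genes with any read, 4082 passed that limit. On thinned cells the numbers were 12, 10 and 18, beside 2430 of all genes. Mgst1 ran from 1272 to 9653 CPM (median 4505 CPM), Gstm1 from 837 to 8451 CPM (3425 CPM) and Gsto1 from 83.5 to 8096 CPM (689.7 CPM). The glucuronosyl transferases Ugt1a6a, Ugt1a7c and Ugt2b34 had reads in 12, 2 and 2 cells. Cbr2 ran from 9946 to 62951 CPM with a median of 34857 CPM. Aldh1a1, which makes retinoic acid and clears aldehydes, ran from 9.46 to 11819 CPM with a median of 4647 CPM and plate medians of 5034, 4399.8 and 5344 CPM. Aldh1a7, its close copy, had a median of 969.9 CPM, Aldh2 one of 1022 CPM and Aldh3a1 one of 351 CPM, whereas Aldh1a3 and the retinol receptor Stra6 had 0 reads. Prdx6, a peroxiredoxin that also acts on phospholipids, had a median of 5805 CPM, the selenium-binding Selenbp1 3044 CPM, catalase (Cat) 1325 CPM and Prdx1 1166 CPM.

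Surfactant protein genes were not absent from club cells. Sftpa1 ran from 1015 to 79848 CPM with a median of 17245 CPM, Sftpb from 55.3 to 13169.6 CPM with a median of 3336 CPM and Sftpd from 124.6 to 5367 CPM with a median of 1267 CPM. In the line's 24 ciliated cells, sorted on the same plates, their medians were 289, 49.3 and 18.2 CPM. Sftpc differed from these 3. Its median was 780.3 CPM in club cells and 669 CPM in ciliated cells, and 261465 CPM in the line's 38 bronchioalveolar stem cells (BASCs), so most club cells lay at the level of cells that should lack it. Its summed level of 4062 CPM was 1189 CPM without the 11 cells apart, a set that holds each cell at or above 10000 CPM by definition. On plate 2 its median was 1991 CPM, against 647 and 733 CPM on plates 3 and 4, and the highest value on plate 4 was 1614 CPM.

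Ager, a receptor used as a marker of alveolar type 1 cells, split the club cells. It ran from 2.61 to 6153 CPM with a median of 318 CPM. It lay under 20 CPM in 25 cells and at 50 CPM or more in 69, and plate medians were 140.97, 501 and 65.5 CPM. In ciliated cells the median was 5.41 CPM, and the summed level in club cells was 656 CPM with and 526 CPM without the 11 cells apart. Of the 12 type 1 markers, 7 stood at 10 CPM or more and 4 were 4-fold or more above ciliated cells, beside 8.12% of all genes measured. Aqp5, a water channel, had a median of 220 CPM and the adhesion-linked Lmo7 162 CPM, whereas Hopx had a median of 0.819 CPM, and Pdpn had reads in 4 cells. The highest sum of the 12 type 1 markers was 10288 CPM, in plate 4 well F2.

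Ion channel, regulator and cell-cycle genes filled in the picture at lower levels. The epithelial sodium channel subunits Scnn1b, Scnn1g and Scnn1a had medians of 345.5, 135.02 and 39.5 CPM, the GABA receptor subunit Gabrp 534 CPM and the chloride cotransporter Slc12a2 142.15 CPM. Cftr had a read in 29 cells and a highest value of 342 CPM. Among 24 lineage transcription factors, the airway factors Klf5, Ehf, Nkx2-1, Foxa1 and Nfib had medians of 136.27, 116.97, 88.1, 74.4 and 94.9 CPM and reads in 94, 87, 89, 86 and 92 cells. Foxj1, the regulator of cilia, had reads in 14 cells and Sox9 in 3. The Notch pathway keeps club cells from the ciliated fate. Its target Hes1 had a median of 81.6 CPM, the receptor Notch2 30.9 CPM and the ligand Jag1 25.1 CPM. The targets Hey2 and Heyl had 0 reads. Over all 14 Notch genes the sum had a median of 300 CPM, against 902 CPM in the line's ciliated cells. The sum of 14 cell cycle genes had a median of 27.4 CPM. It was 6457 CPM in plate 3 well B11 and 4596 CPM in plate 4 well F1, and 723 CPM in the next cell, so 2 of 97 cells (2.06%, 0.251% to 7.25%) stood clear. Mki67, made in dividing cells, had a read in 9 cells and 10 CPM or more in 3.

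Detection was counted on thinned cells. A median of 3789 genes had a read, from 1263 to 5185, with plate medians of 4145, 3513.5 and 3954 genes. Without thinning the median was 5307 genes. Over the 94 thinned cells, 2430.0 genes were seen in at least 50% of cells and 497 in at least 90%. Of the 497 genes, 13 were mitochondrial and 63 encoded ribosomal proteins. Without thinning 933 genes passed the 90% limit. At the other end, 3287 of the 20108 genes with any read had reads in a single cell. Only 70 genes reached 1000 CPM over the summed cells, and 1075 reached 100 CPM. Among the club markers, Scgb1a1, Cbr2, Cyp2f2, Scgb3a2, Hp, Aldh1a1, Sec14l3, Pon1, Aox3 and Gsta3 were seen in 100% of thinned club cells. The same cut gave 98.9% for Gabrp, 97.9% for Cldn10 and 8.51% for Upk3a. In ciliated cells Scgb1a1, Cbr2, Cyp2f2, Hp, Aldh1a1 and Sec14l3 were also seen in 100% and Scgb3a2 in 91.7%, so detection did not separate these markers. There Gabrp was seen in 25%, Cldn10 in 45.8% and Upk3a in 0%.

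Set against the 24 ciliated cells, which share line, sort and plates, club cells had 18 of the 22 club markers 4-fold or more higher, on log2 of the summed CPM with 1 CPM added. The share of all 12002 measured genes that were 4-fold or more higher was 8.12%, and 23.2% were 4-fold or more lower. How the sub-types were assigned is not given in the sources used here and may rest on the same counts, so these numbers are a description. Scgb1a1 was 13-fold higher (258576 against 19889 CPM), but in ciliated cells 2 of 24 held 10000 CPM or more and the median was 901 CPM. Bpifa1 was 408-fold, Scgb3a1 71.2-fold, Scgb3a2 31.4-fold, Fmo2 20.4-fold, Pon1 14.4-fold and Cyp2f2 6.35-fold higher, where Bpifa1 and Scgb3a1 rest on few cells. Cbr2 (2.44-fold), Aldh1a1 (1.68-fold) and Ltf (1.58-fold) missed the limit, and Sec14l3, a lipid-binding protein placed in the club list, was 16225 CPM in ciliated cells against 2463 CPM. All 16 ciliated markers were 4-fold or more lower. Within plates the club count was 19 of 22 on plate 2 (5 ciliated cells), 18 on plate 3 (13) and 17 on plate 4 (6), beside 25.7%, 11.4% and 24.5% of all genes measured there.

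Scgb1a1 took 258576 CPM of club reads and 19889 CPM of ciliated reads, and the median log2 ratio over all 12002 genes was -0.74. The part of Scgb1a1 in that median was not tested. Median-of-ratios scaling centres the ratios by design, so its median of -0.06 is no separate result. With that scaling 11.3% of 11445 genes were 4-fold or more higher. Gene groups are read, without that scaling, against the median of -0.74 and against the 8.12% of all genes higher and 23.2% lower. The 4 secretoglobins had a median log2 ratio of 4.34 with 4 of 4 past 4-fold, the 4 surfactant protein genes 3.51 with 4 of 4 (Sftpc was 4.85-fold higher with the 11 cells apart and 1.42-fold without them), and the 15 airway defence genes 3.12 with 11. The 16 ion and water transport genes had 1.80 with 7 higher and 1 lower, phase I 1.31 with 8 of 22 higher and 3 lower, and conjugation 1.43 with 5 of 19 higher. The 28 genes of the secretory pathway, 27 of which are in the annotation, had 0.06 with 2 higher, and 19 immediate early and heat shock genes had -0.98 with 2 higher and 1 lower. The last 2 groups lay near the share of all genes that were higher. Cyp2s1, at 62.4 against 2809 CPM, and Cyp2b10, at 202 against 1101 CPM, were among the phase I genes that were 4-fold or more lower.

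The spread of each gene between cells was taken as the SD of log2(thinned reads + 1) over 94 cells, set against the median SD of the 100 genes nearest in mean level, for the 1076 genes with a mean of 10 or more thinned reads. The median SD was 1.80. Scgb3a1 spread most, with an SD of 3.56 against 1.08 for its neighbours, an excess of 2.48. Reg3g (1.83), Bpifb1 (1.79), Muc5b (1.71) and Bpifa1 (1.30) were 4 further secreted products among the 15 genes of largest excess, with the copper carrier ceruloplasmin, Cp (0.97), and Retnla (0.98). Scgb3a1, Reg3g, Bpifb1 and Bpifa1, with medians of 6.54, 0, 0 and 0 CPM, passed the limit on mean reads through a few cells. A large SD beside genes of like mean follows from that shape. Ager had an excess of 1.503 and Timp3, an inhibitor of matrix proteases, 1.45. Genes known to respond quickly to stimulation made up much of the rest: Ccn1 (1.90), Dusp1 (1.22), Nr4a1 (1.16), Klf6 (1.11), Depp1 (1.11) and Errfi1 (0.97). In all, 48 genes had an excess of 0.5 or more.

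The values behind these figures differ in shape. Ccn1, a secreted matrix protein, ran from 0.929 to 8179 CPM with a median of 110 CPM, reached 100 CPM or more in 50 cells, and had plate medians of 222, 114.8 and 54.02 CPM. Muc5b ran from 0 to 7983 CPM with a median of 2.83 CPM and passed 100 CPM in 27 cells. Scgb3a2 had an excess of 0.84 although it was seen in every cell. Among the 10 genes with the lowest excess were several of respiration. Ndufa13 (-0.999), Ndufa1 (-0.96), Cox8a (-0.96), Atp5e (-0.96), Uqcrb (-0.88) and Atp5j (-0.88) encode parts of the respiratory chain or ATP synthase, Fau (-1.04) a ribosomal protein precursor and Rnaset2b (-0.98) a ribonuclease. Scgb1a1 (-0.69), Cbr2 (-0.54), Cyp2f2 (-0.50) and Hp (-0.40) also spread less than genes of like level, though few genes have such levels and their neighbours are lower.

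**Figure D3:**
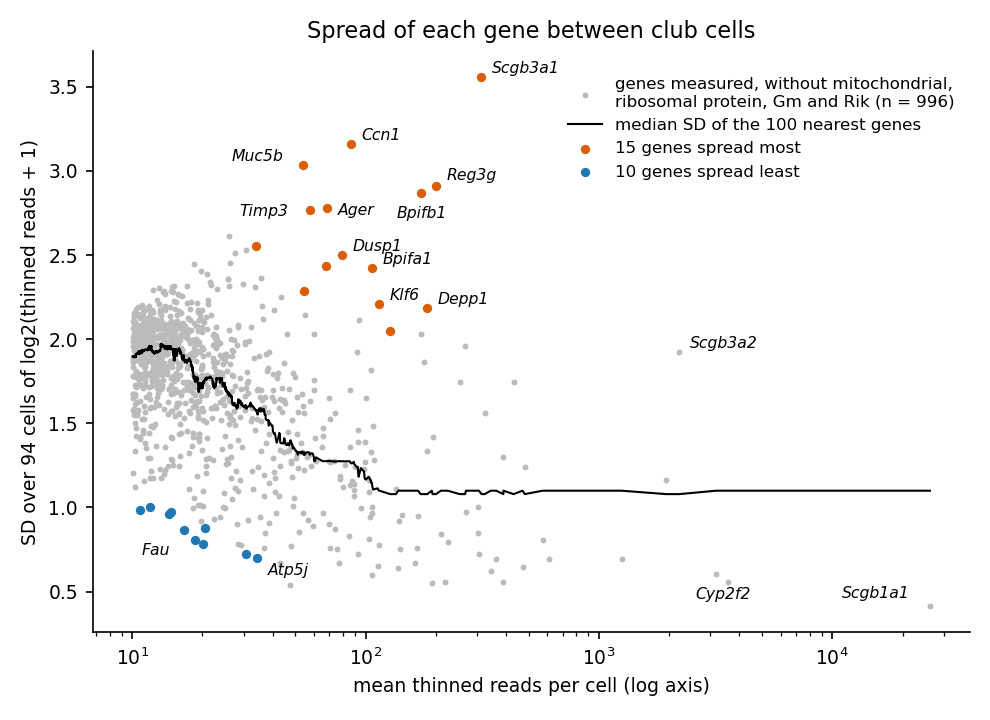
SD over 94 cells of log2(thinned reads + 1) (y axis) against mean thinned reads (x axis, log) for 996 genes, with a line for the median SD of the 100 nearest genes, the 15 genes spread most in orange and the 10 spread least in blue. Scgb3a1 lies highest, at an SD of 3.56, and Scgb1a1 lowest at the right, at 0.41.

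Co-variation was described by Spearman's rho over the 94 thinned cells, which share libraries made in 3 plates and a fixed total of reads, so that a rise in a large gene lowers the others. Each of 6 anchor genes was set against the other 2216 genes seen in at least 50% of cells (2217 for Scgb3a1, which itself fell short of that limit). For Cyp2f2 the central 90% of genes lay between -0.16 and 0.23. Cyp4b1 had the highest rho with it, 0.64, and 0.69, 0.69 and 0.46 on the 3 plates. The cell with least Cyp2f2 had 560.0 thinned reads of it and the cell with most had 5767, around a median of 3320, while Cyp4b1 ran from 23 to 759 with a median of 279. Tmbim6 (0.47), Gstm1 (0.45), Prdx6 (0.40) and the sodium channel subunit Scnn1b (0.40) followed. Cyp4b1 was in turn positively related to Ces1d (0.42) and Prdx6 (0.41), and Gstm1 to Prdx6 (0.47). By plate, Cyp4b1 with Ces1d gave 0.76, 0.39 and 0.06, and Cyp2f2 with Prdx6 gave 0.18, 0.50 and 0.20, and 0.26 without plate 3. Mgst1, another conjugation enzyme, had a rho of 0.02 with both Prdx6 and Ces1d.

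The 250 bases before the RefSeq starts of Cyp2f2 (GRCm38.p6, chr7:27119705-27119954, plus strand) and Cyp4b1 (chr4:115647722-115647971, minus strand) are printed because this pair had the highest rho of any anchor. Capitals mark a match to the AP-1 letters TGANTCA, a palindrome read on both strands, which ends 163 bases before the Cyp4b1 start. The Cyp2f2 window had no match to any of the 6 motifs searched.
Cyp2f2: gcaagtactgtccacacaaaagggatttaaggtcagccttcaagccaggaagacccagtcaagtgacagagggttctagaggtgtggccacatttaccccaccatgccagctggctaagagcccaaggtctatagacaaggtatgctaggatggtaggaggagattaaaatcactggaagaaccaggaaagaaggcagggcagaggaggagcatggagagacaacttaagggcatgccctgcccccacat
Cyp4b1: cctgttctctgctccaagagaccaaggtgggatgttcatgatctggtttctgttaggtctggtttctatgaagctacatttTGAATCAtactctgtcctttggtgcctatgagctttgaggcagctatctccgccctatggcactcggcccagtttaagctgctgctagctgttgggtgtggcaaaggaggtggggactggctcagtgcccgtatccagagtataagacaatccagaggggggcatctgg
The motifs were AP-1, CRE (TGACGTCA), FOXA, NKX2-1, TATA box (TATAAA) and CArG box, and the last 2 can overlap. The AP-1 letters were in 7.81% of all windows.

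**Figure D4:**
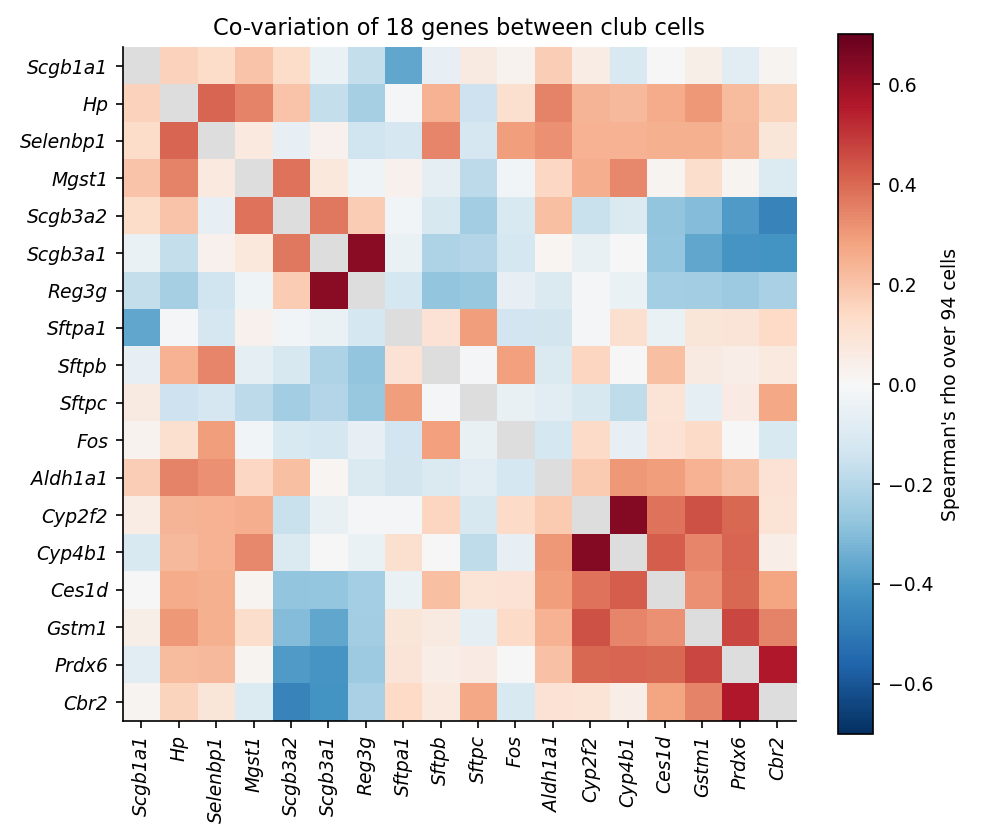
Spearman's rho over 94 thinned club cells between 18 genes with many reads (both axes), from blue (negative) to red (positive). The order of genes was set by hand, with Cyp2f2, Cyp4b1, Ces1d, Gstm1 and Prdx6 side by side as a red square at the lower right. Scgb3a2 and Scgb3a1 are blue against Prdx6 and Cbr2.

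Scgb3a2 and Scgb3a1 were negatively related to Cbr2. For Scgb1a1 with Cbr2 the rho was 0.02, but its sign differed by plate (-0.25, 0.22 and -0.35). Scgb3a2 had rho of -0.47 with Cbr2 (-0.51, -0.49 and -0.43 by plate) and -0.40 with Prdx6, and Cbr2 and Prdx6 were related to each other at 0.56. Scgb3a2 was positively related to Gmnn, a regulator of DNA replication (0.44), Tmem176a (0.43, but 0.21 without plate 3 and 0.17 by Pearson r), AW112010 (0.42), Cp (0.39), Mgst1 (0.38) and Scgb3a1 (0.37). Scgb3a1 in turn had rho of 0.48 with Lypd2, 0.43 with Cd14, which binds bacterial lipopolysaccharide, 0.42 with the membrane mucin Muc4 and 0.40 with Cp. It had -0.51 with Ager (-0.66, -0.39 and -0.82 by plate), -0.46 with Sec14l3, -0.44 with Tmsb4x and -0.42 with Cbr2. With Reg3g its rho was 0.63, where 49 of 94 cells had 0 thinned reads of Scgb3a1 and 65 had 0 of Reg3g, so that many ranks were tied. Plate values for that pair were 0.20, 0.76 and 0.72. With the total taken outside the 10 largest genes, the rho of Scgb3a2 with Cbr2 was -0.29.

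The rho of Scgb1a1 with Scgb3a2 and Cyp2f2 was 0.13 and 0.05, and of 2216 genes 1 had a rho of 0.4 or more with it and 3 one of -0.4 or less. Those counts were 1 and 1 for Aldh1a1 and 1 and 0 for Hp. Among genes with the same sign on every plate, Bri3 was highest (0.32, and 0.23, 0.25 and 0.06 by plate). The lowest values were with Ptp4a1, a phosphatase (-0.50), Pdia3, a chaperone of the endoplasmic reticulum (-0.47), and Tram1, which helps proteins enter it (-0.41). By plate, Ptp4a1 gave -0.19, -0.58 and -0.46, Pdia3 -0.43, -0.32 and -0.33, and Tram1 -0.16, -0.29 and -0.24. For Bri3, Pdia3 and Tram1 each plate value was thus weaker than the pooled one. Sftpa1 had -0.36 with Scgb1a1, and -0.82, -0.35 and -0.31 by plate. With the total taken outside the 10 largest genes, Pdia3 had -0.30, Tram1 -0.33 and Ptp4a1 -0.45. Scgb1a1 had rho of -0.30 with a cell's number of reads before thinning. Hp was highest with Selenbp1 (0.41), and the chaperone partner Sil1 (0.38) and the glutathione transferases Gstm2 (0.35) and Mgst1 (0.35) followed among its leading genes. Aldh1a1 was highest with Tmem134 (0.40), Gsto1 (0.38), Por (0.36) and Pcnt (0.35), and lowest with the nuclear RNA Malat1 (-0.44).

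Several immediate early genes lay in blocks of co-varying genes. Among the 150 genes of largest excess spread, joined by rho at a mean distance of up to 0.6, there were 2 blocks of 5 or more genes, while the mean rho over all 150 was 0.05. At a distance of 0.5 there were 0 blocks, and at 0.7 there were 6. Fos, Fosb, Nr4a1 and Ccn1 were in neither of the 2 blocks. The first held Jun, Klf6, Atf3, Dusp1, Krt18, Zfand5 and Tsc22d1, with a mean rho of 0.45 (0.50, 0.41 and 0.47 by plate). Jun and Atf3 encode subunits of the AP-1 and related transcription factors, Klf6 a zinc finger factor, Dusp1 a phosphatase of MAP kinases and Krt18 a keratin. The second held Icam1, Junb, Egr1, Neat1 and Zfp36, with a mean rho of 0.45 (0.29, 0.47 and 0.59 by plate). Egr1 is a zinc finger transcription factor, Zfp36 a protein that destabilises mRNA, Icam1 an adhesion molecule and Neat1 a nuclear RNA. Between the blocks the mean rho was 0.28. With a second thinning draw Jun and Tsc22d1 left the first block and Zfp36 the second, and a block of Scgb3a1, Reg3g, Bpifb1, Bpifa1 and Il13ra1 appeared. That block was also seen at a distance of 0.7 and without the 11 cells apart. In these same settings Fos and Fosb joined the block with Dusp1 and Klf6. Without the 11 cells apart, Krt18 and Zfand5 left it. A block is chosen by its own correlation, so these means are a description.

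Levels of the first block ranged widely between cells. Dusp1 ran from 0.791 to 4474 CPM with a median of 463 CPM, Klf6 from 3.05 to 4448 CPM with 939 CPM, Jun from 2.38 to 3439 CPM with 923 CPM and Atf3 from 0 to 1609 CPM with 243 CPM. In the second block Egr1 ran from 0 to 4231 CPM (median 723 CPM), Icam1 from 0 to 1531 CPM (234 CPM), Junb from 0 to 1164 CPM (384.5 CPM) and Zfp36 from 0 to 1672 CPM (420.5 CPM). Fos, the partner of Jun, ran from 9.52 to 9911 CPM with a median of 2292 CPM. The sum of the 19 immediate early and heat shock genes had a median of 10515 CPM in club cells and 26034 CPM in ciliated cells, and the heat shock genes Hspa1a and Hspa1b stood at 9.08 and 5.78 CPM. Handling time per cell is not given in the labels, and its part in these values was not tested.

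To show a promoter of each block, the 250 bases before the RefSeq starts of Dusp1 (GRCm38.p6, chr17:26508473-26508722, minus strand) and Zfp36 (chr7:28379229-28379478, minus strand) are printed. Capitals mark a CRE match in the Dusp1 window and a CArG box that ends 49 bases before the Zfp36 start.
Dusp1: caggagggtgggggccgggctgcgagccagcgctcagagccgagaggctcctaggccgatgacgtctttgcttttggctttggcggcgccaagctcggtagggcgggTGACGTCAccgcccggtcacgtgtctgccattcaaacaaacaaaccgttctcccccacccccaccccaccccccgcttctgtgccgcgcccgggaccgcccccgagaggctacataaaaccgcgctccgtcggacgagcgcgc
Zfp36: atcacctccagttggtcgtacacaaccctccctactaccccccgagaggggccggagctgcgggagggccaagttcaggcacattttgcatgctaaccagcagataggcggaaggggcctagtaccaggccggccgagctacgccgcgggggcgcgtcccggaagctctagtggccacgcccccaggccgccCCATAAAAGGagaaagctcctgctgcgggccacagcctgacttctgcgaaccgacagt
The CRE letters were in 1.79% and the CArG box in 1.63% of all windows. In the first block, windows were matched for 7 of 7 genes, of which 1 had the CRE letters and 0 the AP-1 letters. In the second, 3 of 5 genes had a window, of which 1 had a CArG box.

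**Figure D5:**
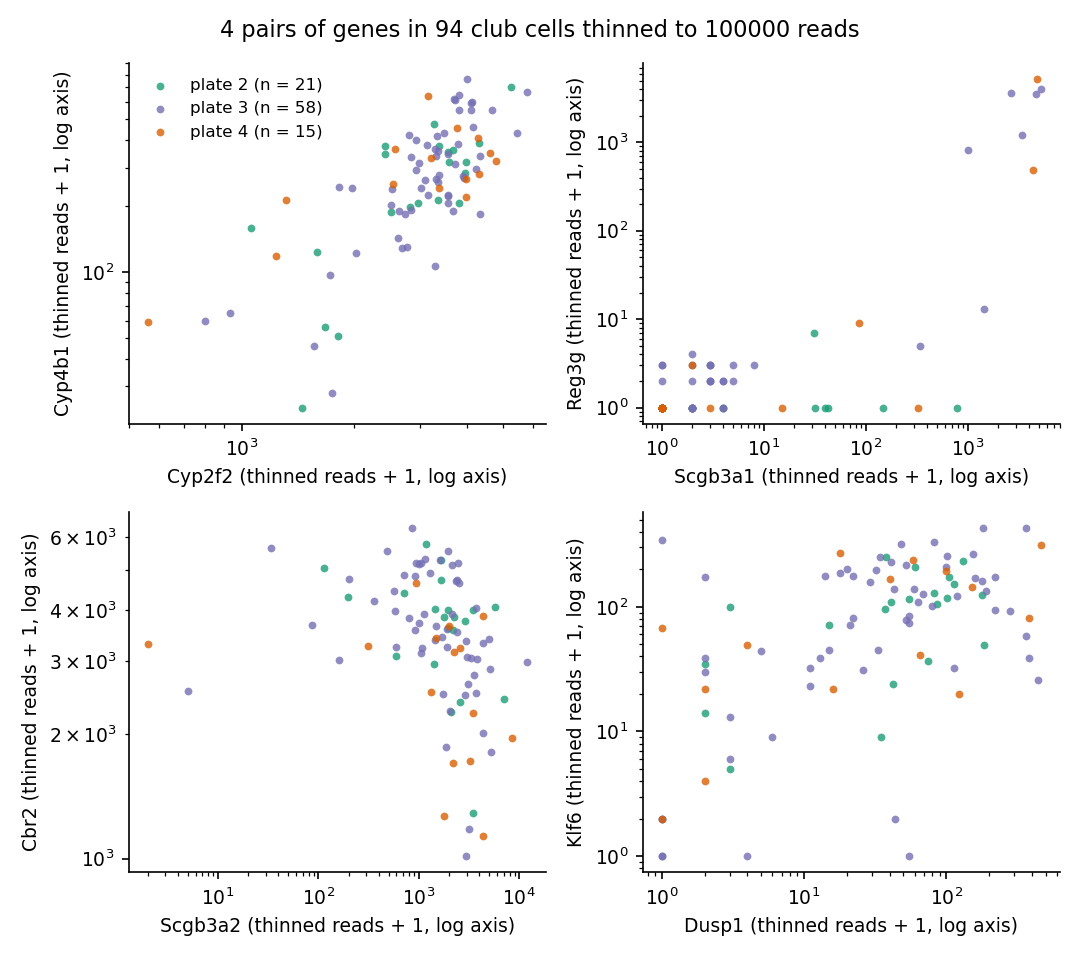
Thinned reads + 1 of 4 pairs of genes in 94 club cells (both axes log), coloured by plate: Cyp2f2 and Cyp4b1, Scgb3a1 and Reg3g, Scgb3a2 and Cbr2, Dusp1 and Klf6. The first pair lies along a line (rho 0.64), the second is split into cells near 0 and a few with many reads, the third slopes down (rho -0.47) and the fourth is a broad cloud (rho 0.44).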

How the data were processed

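Full-length cDNA of single sorted cells was made with SuperScript II, amplified by PCR without molecular identifiers and sequenced from Nextera XT libraries, per the labels' protocols. The authors deposited 1 table of raw read counts per gene for 480 cells, made with HISAT2 and HTSeq on GRCm38 per the submitters' processing notes. Tool versions, annotation release and strand setting were not given in the sources used here. Each column was matched to 1 cell by its plate and well, with 0 columns unmatched and 0 columns identical.

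Of 53379 gene IDs, 53274 matched a symbol in GENCODE M21, and the other 105 held 0.0066% of club cell reads. Computed here with Python 3.11.15, numpy 2.4.6, pandas 2.3.3 and scipy 1.17.1 were CPM of summed reads, levels per exon length, cells thinned to 100000 reads, excess spread, Spearman's rho and blocks of rho by average linkage. Depth ran from 4519 to 2419525 reads per cell. Genes are 4-fold apart on log2 of CPM with 1 CPM added, among genes with 5 CPM or more in either group. Because no animal is named, no test was run. No cell was removed and no doublet caller was run. The cells were taken by label, but this group and the gene lists were chosen with earlier results of these data known.

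Genes to be named were drawn from the 5 markers, the 30 genes with most reads, up to 5 leading members of each list seen in 25% or more of cells with any member at 0, the 15 most and 10 least spread genes, the leading block genes, and the 5 highest and 3 lowest genes by rho with each of 6 anchors among those with the same sign on every plate. Predicted, mitochondrial and ribosomal genes were left out of the reads list. Not all of these are printed, and further genes named by role were chosen after their values were seen. Promoter sequences are from RefSeq (GRCm38.p6). Alternatives were another added value, scaling, filter, total, distance and no thinning, and leaving out each plate. A second thinning draw and leaving out the 11 cells apart were chosen after seeing the data. The procedures were tested on simulated data.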

Additional observations from a re-analysis of the deposited data

How the results depend on the processing

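Without thinning 933 genes had a read in at least 90% of cells, against 497 with it. The number of blocks was 2 at a distance of 0.6, 0 at 0.5 and 6 at 0.7, and it was 4 without the 11 cells of high Sftpc or ciliated marker sum and 3 with a second thinning draw, both chosen after seeing the data. The mean rho of the block with Egr1 was 0.45 over all cells, 0.29 within plate 2 and 0.59 within plate 4. Of 336 values of rho for 48 pairs under 7 settings, 282 lay within 0.1 of the reported value and 54 moved further. Without plate 3, 22 of 48 lay within 0.1. The pairs were chosen for the same sign on every plate, so their sign is no sign of stability. Leaving out cells whose club sum was not the highest removed 0 cells. With 10 CPM added, 16 of 22 club markers were 4-fold or more higher, beside 1.51% of all genes. Leaving out each plate in turn gave 248200 to 300852 CPM for Scgb1a1. No paired analysis was possible because the cells carry no replicate number and no test was made. Cells shallower than 100000 reads could not enter the thinned values, and a gene under 1 thinned read per cell is near the limit of what they can show.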

Other observations

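Club cells of the BASCs-Tracer line (15 cells, also 1 sample) gave values for the same genes. Scgb1a1 stood at 139724 CPM there, with single cells from 44109 to 260804 CPM and a median of 146157 CPM. Cbr2 stood at 54759 CPM, Cyp2f2 at 23808 CPM, Scgb3a2 at 11009.5 CPM and Scgb3a1 at 5.11 CPM. On plate 2, which holds 8 of those cells and 22 club cells of the Scgb1a1-TD line, medians were 152149 and 303575 CPM for Scgb1a1, 48593 and 38374 CPM for Cbr2, 20056 and 31328 CPM for Cyp2f2, and 4996 and 18447 CPM for Scgb3a2. For all 4 genes the cells of the lines overlapped, and each line is 1 sample, so no test was made.

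MHC class II genes, which present antigen, summed to a median of 32.4 CPM in the Scgb1a1-TD club cells and to at most 1800.0 CPM, and to at most 414 CPM without the 11 cells of high Sftpc or ciliated marker sum. Of the circadian clock genes, Nr1d1 stood at 212 CPM, Bhlhe40 at 74.1 CPM, Tef at 71.1 CPM and Dbp at 4.45 CPM, and Hlf had 0 reads. Y-linked genes reached 10 CPM or more in 80 of 97 cells and Xist in 2.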
